A study of Homo sapiens with 18 samples.

Results

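The kallikreins are secreted serine proteases, and 6 of them were followed here in the prostate cancer cell line LNCaP, an established human line: KLK3, which encodes prostate-specific antigen (PSA), KLK2, KLK4, KLK15, KLK11 and KLK10. They were taken by symbol from a deposited table of RPKM (reads scaled to the length of the gene and the depth of the library) for 26443 genes, in which each of the 6 has 1 row. Of the 6, 4 (KLK3, KLK2, KLK4 and KLK15) reached 1 RPKM in at least 3 libraries and could be tested; KLK11 and KLK10 were too low to read. The 18 libraries fell into 6 groups of 3, all infected with lentivirus for 5 days and all given 100 µM CoCl2, which mimics hypoxia and stabilises HIF1A protein, for 24 h: shRNAs against both FOXA1 and HIF1A, shHIF1A, shFOXA1 with the HIF1A inhibitor KC7F2 (40 µM, 24 h), shFOXA1, the control vector pGIPZ with KC7F2, and pGIPZ as the control. There was no group without CoCl2, so every level below is one under the hypoxia mimic. The cells were grown in RPMI with serum, and the labels name no androgen treatment, no vehicle for KC7F2 and no second vector for cells with 1 shRNA. Each group is called a triplicate, with no word on separate cultures, so p-values speak only to the spread of these libraries, which may be technical.

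The human kallikreins lie side by side in 1 cluster and are made as inactive precursors that other proteases cut. In the prostate they are secreted into seminal fluid, where PSA cleaves the semenogelins of the seminal coagulum, and KLK2, KLK4 and KLK15 can activate pro-PSA in vitro. KLK2 and KLK3 are classic androgen-induced genes, and FOXA1 is a pioneer factor that opens chromatin for other transcription factors, while HIF1A protein builds up when oxygen is short and switches on hypoxia genes.

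The promoters of KLK3 and KLK2 are shown because KLK2 and KLK3 are neighbours with closely related promoters, and that of KLK4 because KLK4 followed another pattern across the groups. The windows run from 250 bases before to 50 bases after the start of a RefSeq transcript (GRCh38.p14) on the gene's own strand. In KLK3 and KLK2 the capitals mark a run of 15 bases that in KLK3 is known as the proximal androgen response element. In KLK4 they mark the only match to the core letters of the HIF binding site, ACGTG. KLK4 has another RefSeq window, chr19:50911346-50911645, which holds no such match and is not shown.
KLK3, chr19:50854665-50854964 (+): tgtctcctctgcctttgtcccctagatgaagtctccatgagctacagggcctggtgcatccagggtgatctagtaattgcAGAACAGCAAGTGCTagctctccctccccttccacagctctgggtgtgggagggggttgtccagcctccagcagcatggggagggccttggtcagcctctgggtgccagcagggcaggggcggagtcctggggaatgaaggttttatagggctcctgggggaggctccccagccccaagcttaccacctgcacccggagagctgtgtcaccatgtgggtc
KLK2, chr19:50873189-50873488 (+): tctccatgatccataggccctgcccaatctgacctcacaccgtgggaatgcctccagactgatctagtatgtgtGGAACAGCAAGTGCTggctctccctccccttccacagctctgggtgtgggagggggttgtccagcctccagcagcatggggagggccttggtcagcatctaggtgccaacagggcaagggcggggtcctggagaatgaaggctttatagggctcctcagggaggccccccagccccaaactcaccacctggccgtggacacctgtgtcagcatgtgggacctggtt
KLK4, chr19:50910689-50910988 (-): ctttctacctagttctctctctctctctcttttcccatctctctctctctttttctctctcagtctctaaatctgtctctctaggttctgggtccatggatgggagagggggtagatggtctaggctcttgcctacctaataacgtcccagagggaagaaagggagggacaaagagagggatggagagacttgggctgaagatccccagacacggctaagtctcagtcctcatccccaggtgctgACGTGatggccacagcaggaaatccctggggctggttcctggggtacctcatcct

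Of 269 aligned bases of the KLK3 and KLK2 windows, 236 were identical (87.7%). The marked run starts 170 bases before the start in KLK3 and 176 before it in KLK2, and within it the pair differ by 1 substitution, A1G, counted from the 5′ end of the run with KLK3's base first. Each run occurred in 1 of 35116 RefSeq promoter windows of this length, both strands searched. The 6-letter half-site AGAACA is the first part of the KLK3 run and was in 14.8% of all windows; among the 10 windows of the 6 kallikreins only that of KLK3 held it. ACGTG was in 21.4% of all windows and, among the kallikreins, in 1 of the KLK4 windows, both of KLK10 and 1 of KLK11. The forkhead letters TGTTTAC, in 3.42% of all windows, and GCGTG, in 36.5%, were in none of the 10. A match is a description of letters and is not evidence of binding, and enhancers farther away were not examined.

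The cluster spans 16 genes on chromosome 19, from 50819148 to 51084245 (hg38, GENCODE 29). From one end, KLK15 (50825289 to 50837213, minus strand) is followed by KLK3 (50854915 to 50860764, plus strand), KLK2 (50861568 to 50880567, plus strand), the transcribed pseudogene KLKP1 (50882096 to 50896398, minus strand) and KLK4 (50906352 to 50910738, minus strand), and KLK10 (51012739 to 51020175) and KLK11 (51022216 to 51028039) lie farther on, on the minus strand. KLK3 and KLK2 share 11 exonic windows of 50 bases, 0.215% of those in KLK3 and 0.159% of those in KLK2. Few exact reads of 50 bases or more could therefore fit both. Shorter reads and reads with mismatches were not examined. KLK15 lies over an antisense gene with no shared exon, and KLK10 shares exon sequence with one; whether the counting used strand is not given in the sources used here.

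Within these cells the transcripts spanned a wide range of levels. In control cells KLK3 ranked 28 to 36 among all genes by RPKM, with 813 ± 129 RPKM (mean ± SD, n = 3 for every group). KLK4 stood at 102 ± 20.9 RPKM, KLK2 at 51.7 ± 8.23 RPKM and KLK15 at 3.05 ± 0.398 RPKM. RPKM are per length, so levels and shares between genes depend on the gene lengths that the authors used. Compared with the lengths read from the values, GENCODE lengths were 2.43 times as long for KLK3, 2.16 for KLK2, 1.42 for KLK4 and 1.75 for KLK15. KLK3 made up 73.9 to 86.1% of the summed RPKM of the 16 cluster genes over all libraries. Of the 10 other genes of the cluster only KLKP1 passed the filter, and KLK5 and KLK9 were listed at 0 in every library.

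**Figure D1:**
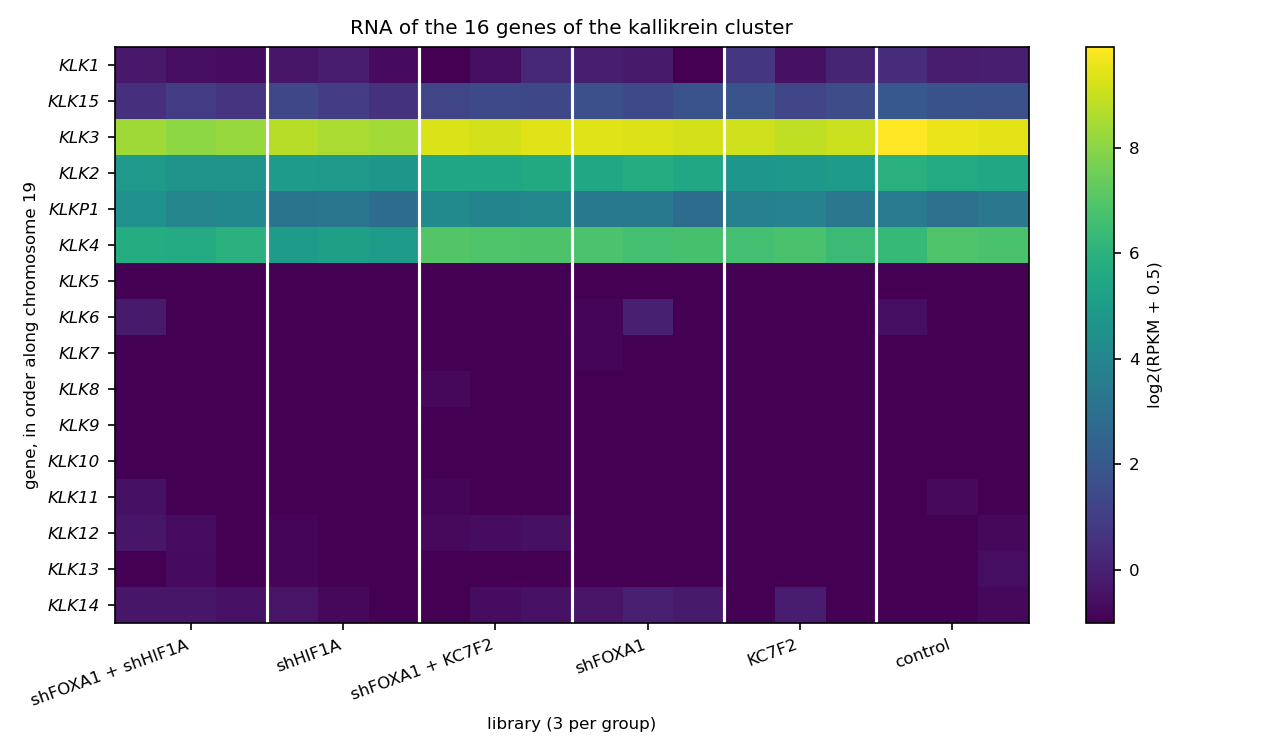
Heat map of log2(RPKM + 0.5) for the 16 genes of the cluster, in their order along chromosome 19 (rows), in the 18 libraries, 3 per group (columns). KLK3 is the brightest row, followed by KLK4, KLK2, KLKP1 and KLK15, while KLK5, KLK9 and KLK10 are at 0 in all 18 libraries.

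KLK10 and KLK11, which encode trypsin-like kallikreins of normal epithelia, could not be read. KLK10 was listed at 0 in all 18 libraries. As an approximate upper limit for the expected count behind a count of 0, 3 reads were taken. At the GENCODE exon length of KLK10, 3853 nucleotides, they would be worth 0.0644 to 0.239 RPKM depending on the library. The length behind the authors' RPKM of KLK10 is not known. For the 9 cluster genes where that length could be read from the values, the GENCODE length was 1.13 to 2.71 times as long (median 1.7), so the limit for KLK10 may be higher by such a factor. KLK11 was above 0 in 3 libraries, at 0.202 RPKM in replicate 1 of the cells with both shRNAs, 0.0715 RPKM in replicate 1 of shFOXA1 cells with KC7F2 and 0.114 RPKM in control replicate 2. These 3 libraries belong to 3 groups, and no comparison was made.

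The shRNAs lowered their targets, with 1 exception to an even knockdown that bears on every result for the cells with both. FOXA1 stood at 59.3 to 70.7 RPKM in cells with both shRNAs, 34.0 to 42.6 in shFOXA1 cells with KC7F2 and 32.4 to 35.1 in shFOXA1 cells, against 71.6 to 113.8 RPKM in control cells, so FOXA1 was higher in cells with both shRNAs than with shFOXA1 alone (log2 difference 0.91 ± 0.16 (SE), adjusted p = 0.000302, limma). HIF1A stood at 4.07 to 4.56 RPKM in cells with both shRNAs and 3.06 to 4.28 in shHIF1A cells, but at 81.6 to 99.5 in shFOXA1 cells, against 13.96 to 27.99 RPKM in control cells. KC7F2 is aimed at the protein, and HIF1A mRNA stood at 13.5 to 23.2 RPKM in KC7F2-treated control cells. In shFOXA1 cells with KC7F2 it stood at 50.6 to 69.9 RPKM, above control (log2 difference 1.48 ± 0.23 (SE), adjusted p = 0.000175, limma). Library depth, recovered from the spacing of the lowest values, was 3260000 to 12100000 reads, averaging 6060000 in cells with both shRNAs and 6330000 in shFOXA1 cells, against 11100000 in control cells. Control 1 and replicates 1 and 3 of KC7F2-treated control cells carried more signal in short genes than the other libraries (0.353 to 0.486 log2 units, against -0.188 to 0.102). The 5 luminal prostate markers given here (KRT8, KRT18, HOXB13, FOLH1 and TMPRSS2) were present in every library, with summed levels of 466 to 500.2 RPKM in cells with both shRNAs, 483 to 581 in shHIF1A cells, 659 to 696 in shFOXA1 cells with KC7F2, 665 to 742 in shFOXA1 cells and 768 to 831 in KC7F2-treated control cells, against 683 to 895 RPKM in control cells, and the part of this sum in the kallikrein results was not tested. Markers of other cell types were low but not all near 0, and their sums differed between groups. The 4 basal markers summed to 7.76 to 9.21 RPKM in cells with both shRNAs, 2.02 to 2.75 in shHIF1A cells, 3.57 to 5.10 in shFOXA1 cells with KC7F2, 4.03 to 6.54 in shFOXA1 cells and 0.568 to 0.916 in KC7F2-treated control cells, against 1.30 to 1.91 RPKM in control cells, carried by KRT14 and KRT15, while KRT5 was at 0 and TP63 at most 0.0199 RPKM. The 5 fibroblast markers reached 7.89 to 9.13 RPKM in shHIF1A cells and 5.22 to 5.86 in cells with both shRNAs and stood at 2.15 to 3.97 in the other treated groups, against 2.55 to 3.47 RPKM in control cells, mostly COL1A1, with COL1A2 at most 0.0162 RPKM. The 4 leukocyte markers reached 18.3 to 19.4 RPKM in shFOXA1 cells, 11.6 to 13.3 in shFOXA1 cells with KC7F2 and 9.69 to 11.4 in cells with both shRNAs and stood at 3.95 to 5.98 in the other treated groups, against 5.61 to 8.03 RPKM in control cells, mostly CD68, with PTPRC at most 0.0288 RPKM. The 3 endothelial markers reached 2.11 to 2.73 RPKM in shHIF1A cells, mostly VWF, and at most 0.988 RPKM in the other groups, with PECAM1 at most 0.0449 RPKM, and the 5 neuroendocrine markers summed to at most 1.12 RPKM in any library. The part of these markers in the kallikrein results was not tested.

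HIF1A knockdown lowered all 4 measurable kallikreins. KLK3, the PSA transcript, had 421, 371 and 334 RPKM in shHIF1A cells, against 958, 769.9 and 711 RPKM in control cells. The highest shHIF1A library lay far under the lowest control library. The change was -1.11 ± 0.13 on the log2(RPKM + 0.5) scale used for all changes below (± SE), which leaves 46.3% of the control level (adjusted p = 6.13e-06, limma with Benjamini-Hochberg adjustment over 12900 genes, as for all adjusted p-values of changes). In bulk RNA, fewer cells that express a gene and less RNA per cell cannot be told apart.

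KLK2, the trypsin-like kallikrein next to KLK3 that can activate pro-PSA, had 32.0, 28.3 and 26.8 RPKM in shHIF1A cells, against 60.4, 50.9 and 44.0 RPKM in control cells. It fell by 0.81 ± 0.12 (adjusted p = 3.64e-05), and the groups did not overlap. KLK4, which acts on several kallikrein precursors and is known best for its part in enamel, had 32.0, 36.5 and 32.0 RPKM in shHIF1A cells, against 79.0, 119 and 108 RPKM in control cells. It fell by 1.58 ± 0.14 (adjusted p = 2.06e-07), with 33.5% left, the lowest remainder of the 4 in this comparison. KLK15, a low-abundance member, had 1.97, 1.47 and 1.03 RPKM in shHIF1A cells, against 3.50, 2.90 and 2.74 RPKM in control cells. It fell by 0.86 ± 0.19 (adjusted p = 0.00154) on 4 to 52 reads per library over the 18 libraries, so counting error is a large part of its spread. Thus 4 of 4 fell where 16.1% of all genes tested fell and 25.9% rose (42.0% called in either direction), and the median change was -0.98 for the 4 and 0.07 for all genes.

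**Figure D2:**
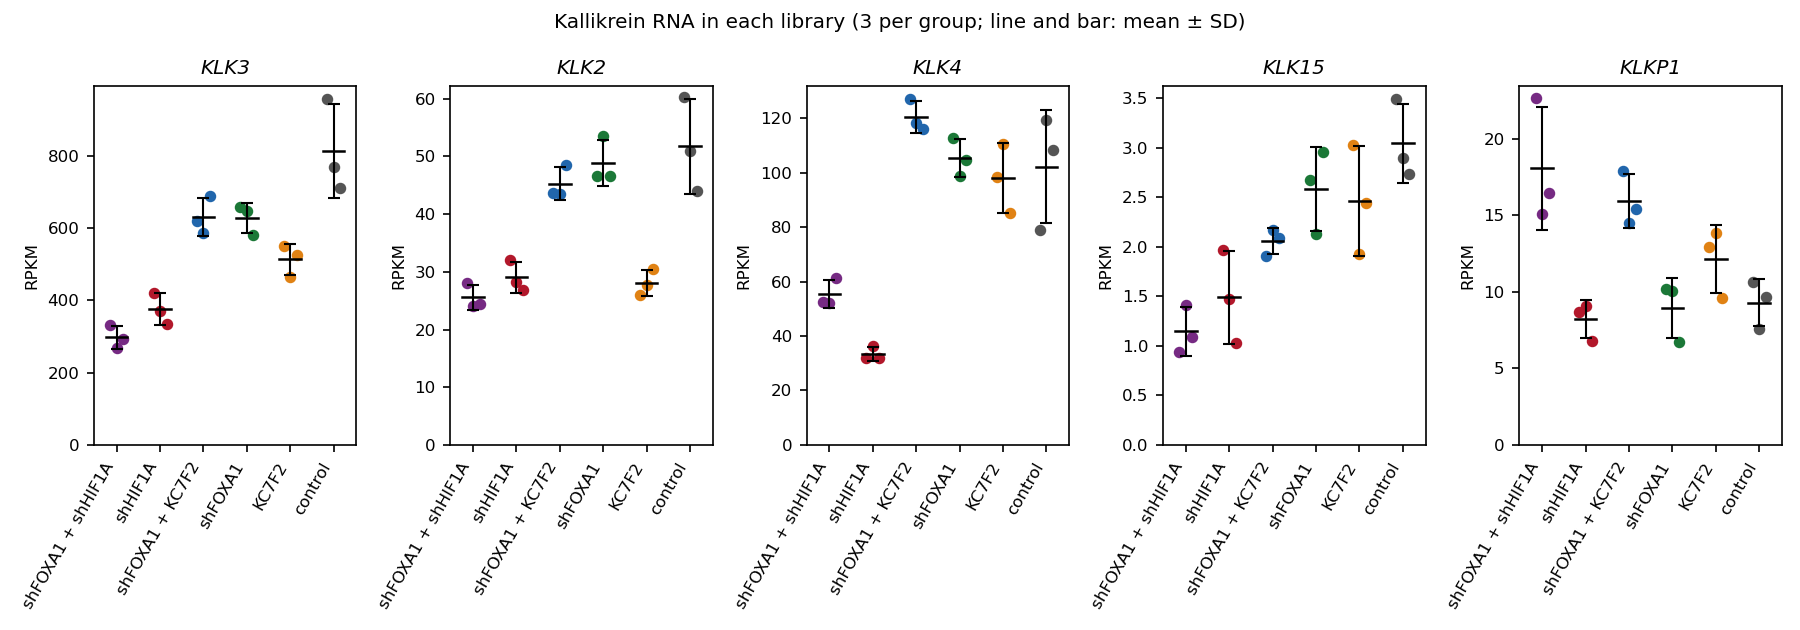
RPKM of the 4 measurable kallikreins and of the pseudogene KLKP1 in each of 18 libraries (points), with the mean and SD of the 3 libraries per group (line and bar) and an axis from 0 for each gene. The means of KLK3 and KLK2 are lowest in the cells with both shRNAs, KLK4 is lowest in shHIF1A cells at 33.5 RPKM, and KLKP1 is highest in the cells with both shRNAs at 18.1 RPKM.

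The drug gave a narrower picture than the HIF1A shRNA. KLK3 had 549.9, 464 and 525 RPKM in KC7F2-treated control cells, against 958, 769.9 and 711 RPKM in untreated control cells. It fell by 0.66 ± 0.13 (adjusted p = 0.0125), and the groups did not overlap. KLK2 had 26.0, 27.6 and 30.5 RPKM in KC7F2-treated control cells, against 60.4, 50.9 and 44.0 RPKM in untreated control cells. It fell by 0.86 ± 0.12 (adjusted p = 0.000421), with 55.0% left. KLK4 averaged 98.0 ± 12.7 RPKM in KC7F2-treated control cells and 102 ± 20.9 RPKM in untreated control cells. Its change was -0.05 (95% interval -0.34 to 0.24, adjusted p = 0.919), and that of KLK15 was -0.27 (-0.66 to 0.13, adjusted p = 0.612). So 2 of 4 fell, against 0.992% of all genes tested that fell, 1.05% that rose and 2.04% called in either direction. The KLK3 call was lost without KC7F2 replicate 2 (adjusted p = 0.06), with no filter (0.0656) and when only these 2 groups were fitted (0.411), and that last fit also lost KLK2 (0.119). With the 3 libraries rich in short genes left out, replicate 2 alone remained of KC7F2-treated control cells, and the KLK3 change was -0.67.

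FOXA1 knockdown alone changed none of the 4 past the threshold. KLK3 had 658, 647 and 581 RPKM in shFOXA1 cells, against 958, 769.9 and 711 RPKM in control cells. The groups did not overlap, but the change of -0.36 ± 0.13 missed the threshold (95% interval -0.64 to -0.08, adjusted p = 0.0574). It passed without control replicate 3 (-0.45, adjusted p = 0.0212) and with the replicate number as a block (-0.36, adjusted p = 0.0255). KLK2 averaged 48.9 ± 4.01 RPKM in shFOXA1 cells and 51.7 ± 8.23 RPKM in control cells, a change of -0.07 (-0.32 to 0.17, adjusted p = 0.7) whose sign turned with other scalings. KLK4 averaged 105 ± 7.07 RPKM in shFOXA1 cells and 102 ± 20.9 RPKM in control cells, a change of 0.06 (-0.23 to 0.35, adjusted p = 0.783). KLK15 averaged 2.59 ± 0.421 RPKM in shFOXA1 cells and 3.05 ± 0.398 RPKM in control cells, a change of -0.20 (-0.60 to 0.19, adjusted p = 0.465). The count of 0 of 4 stands beside 24.1% of all genes called (14.6% lower, 9.52% higher), and the interval of each change leaves room for a modest fall.

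In FOXA1-depleted cells the HIF1A shRNA again lowered all 4, and KC7F2 lowered none. KLK3 had 331, 267 and 294 RPKM in cells with both shRNAs, against 658, 647 and 581 RPKM in shFOXA1 cells. It fell by 1.08 ± 0.13 (adjusted p = 8.89e-06). KLK2 had 28.1, 24.2 and 24.4 RPKM in cells with both shRNAs, against 46.6, 53.5 and 46.6 RPKM in shFOXA1 cells, a fall of 0.92 ± 0.12 (adjusted p = 1.19e-05). The fall of KLK4 was 0.92 ± 0.14 (adjusted p = 5.71e-05), to 55.3 ± 5.15 RPKM with both shRNAs, against 105 ± 7.07 RPKM in shFOXA1 cells. KLK15 fell by 0.91 ± 0.19 (adjusted p = 0.00111), to 1.15 ± 0.244 RPKM against 2.59 ± 0.421 RPKM in shFOXA1 cells. All 4 fell, where 13.5% of all genes tested did (37.5% called in either direction). FOXA1 itself was less depleted in the cells with both shRNAs (above), and its part in these differences was not tested.

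With KC7F2 in place of the HIF1A shRNA the levels of the 4 stayed close to those of shFOXA1 cells. KLK3 had 618, 585 and 689 RPKM in shFOXA1 cells with KC7F2, against 658, 647 and 581 RPKM in shFOXA1 cells. The groups overlapped, and the change was 0.00 (95% interval -0.28 to 0.28, adjusted p = 0.997). KLK2 averaged 45.3 ± 2.88 RPKM in shFOXA1 cells with KC7F2 and 48.9 ± 4.01 RPKM in shFOXA1 cells, a change of -0.11 (-0.35 to 0.14, adjusted p = 0.731). KLK4 changed by 0.19 (-0.10 to 0.48, adjusted p = 0.55) and KLK15 by -0.26 (-0.66 to 0.13, adjusted p = 0.55). No member of 4 was called, and 4.08% of all genes were.

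Whether FOXA1 knockdown altered the response to each form of HIF1A inhibition was tested as an interaction. For KLK2 the response to KC7F2 was 0.75 ± 0.16 higher on the log2 scale in FOXA1-depleted cells than in control-vector cells, and for KLK3 it was 0.66 ± 0.19 higher. Neither passed the adjustment (adjusted p = 0.109 and 0.282), in a test that called only 10 genes (0.0775%), so the difference between the 2 backgrounds was not established. Both passed with quantile normalization (adjusted p = 0.00359 for KLK2 and 0.00147 for KLK3) and KLK2 with median-ratio scaling (0.0304). KLK4 changed by 0.24 ± 0.19 (adjusted p = 0.896) and KLK15 by 0.00 ± 0.26 (adjusted p = 0.998) in the same test.

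With the HIF1A shRNA the interaction singled out KLK4. Its fall was smaller in FOXA1-depleted cells, by 0.65 ± 0.19 (adjusted p = 0.0486), with 7.61% of all genes called. That call lies at the threshold. It was lost in 5 other settings (adjusted p of 0.0536 to 0.19), and of the 18 fits that each left out 1 library it held only without control 1 or without replicate 2 or 3 of KC7F2-treated control cells (adjusted p up to 0.111 in the others). For KLK3 the interaction was 0.03 (95% interval -0.37 to 0.42, adjusted p = 0.954), for KLK2 -0.11 (-0.46 to 0.24, adjusted p = 0.752) and for KLK15 -0.05 (-0.61 to 0.50, adjusted p = 0.939), intervals within which a smaller or larger response could lie.

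The same pattern can be read from the side of FOXA1. In HIF1A-depleted cells KLK4 had 52.6, 52.1 and 61.3 RPKM with both shRNAs, against 32.0, 36.5 and 32.0 RPKM with shHIF1A alone. KLK4 rose by 0.72 ± 0.14 (adjusted p = 0.00185), the only 1 of the 4 called, with 5.27% of all genes higher and 14.5% called. KLK3 changed by -0.33 ± 0.13 (adjusted p = 0.108), KLK2 by -0.18 ± 0.12 (0.343) and KLK15 by -0.26 ± 0.19 (0.413). In KC7F2-treated cells it was KLK2 that rose with the FOXA1 shRNA, with 43.7, 43.5 and 48.6 RPKM in shFOXA1 cells with KC7F2, against 26.0, 27.6 and 30.5 RPKM in control-vector cells with KC7F2. The rise was 0.68 ± 0.12 (adjusted p = 0.000337), with 8.88% of all genes higher and 32.9% called. In that comparison KLK3 changed by 0.30 ± 0.13 (adjusted p = 0.0937), KLK4 by 0.30 ± 0.14 (0.098) and KLK15 by -0.20 ± 0.19 (0.436). The median of all genes there was -0.15, and when median-ratio scaling moved it to 0.00 the changes became 0.84 for KLK2, 0.46 for KLK3 and 0.46 for KLK4, all past the threshold (adjusted p = 9.33e-06, 0.00544 and 0.0232).

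Against control, cells with both shRNAs had the lowest mean KLK3 and KLK2 of the 6 groups. KLK3 fell by 1.44 ± 0.13 (adjusted p = 2.94e-07), with 36.8% left, and KLK2 by 0.99 ± 0.12 (adjusted p = 4.1e-06). KLK4 fell by 0.86 ± 0.14 (adjusted p = 9.08e-05) and KLK15 by 1.11 ± 0.19 (adjusted p = 0.00016). All 4 fell, where 19.5% of all genes did (42.1% called). In shFOXA1 cells with KC7F2 none of the 4 was called against control, with 27.4% of all genes called, and the changes were -0.36 for KLK3 (adjusted p = 0.0546), -0.18 for KLK2 (0.269), 0.25 for KLK4 (0.179) and -0.47 for KLK15 (0.0733). The KLK3 value of this comparison turned to 0.04 with quantile normalization.

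**Figure D3:**
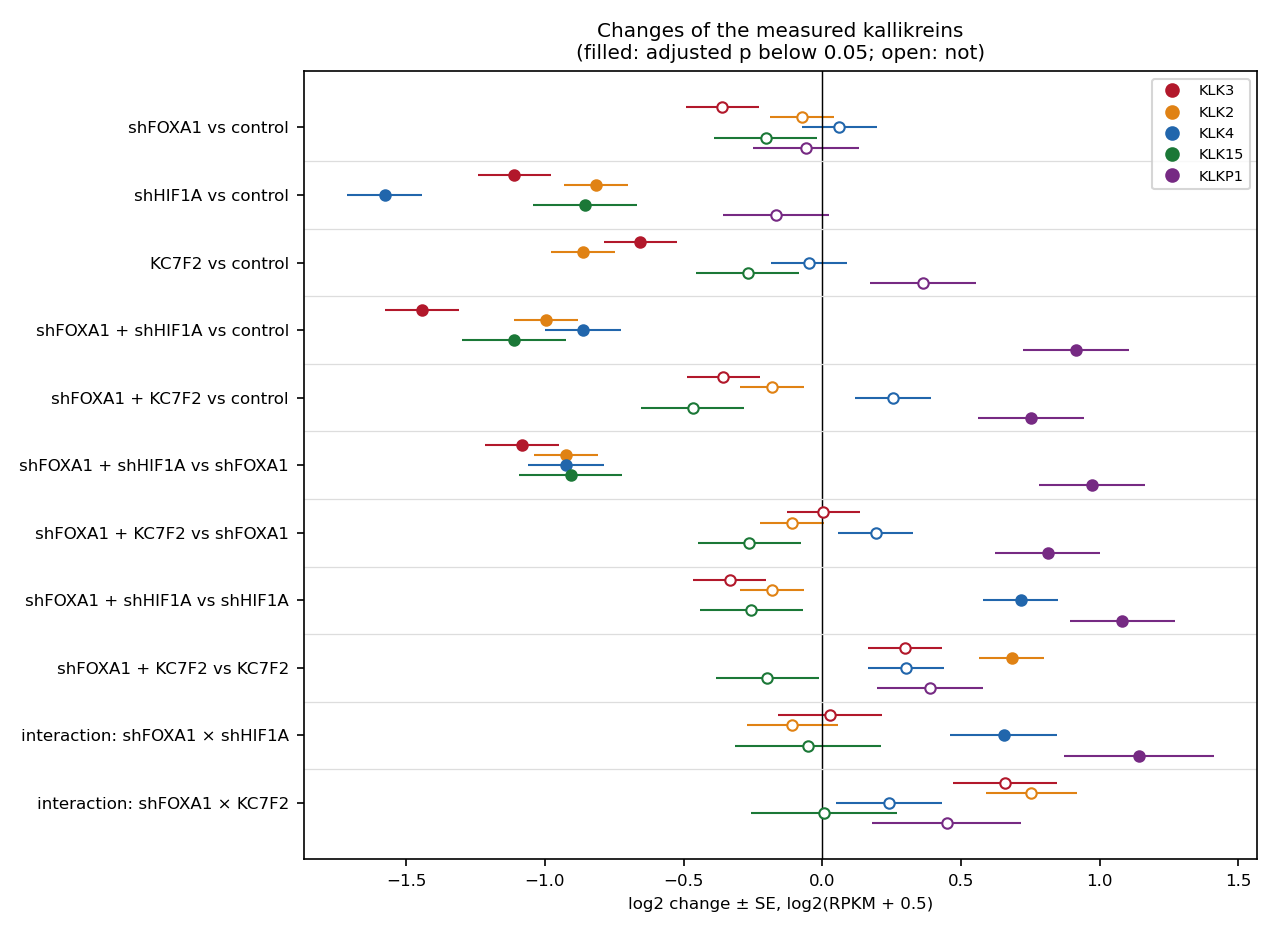
log2 change on the log2(RPKM + 0.5) scale with its SE (horizontal bars) for KLK3, KLK2, KLK4, KLK15 and KLKP1 in 11 contrasts; filled points have an adjusted p below 0.05 (limma) and open points do not. The 4 protein-coding genes lie left of 0 and filled in the 3 contrasts that set the HIF1A shRNA or both shRNAs against cells without the HIF1A shRNA, and KLKP1 lies right of 0 and filled in 6 contrasts.

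Neighbouring groups, in order of their means, were set side by side by their ranges. Whether the ranges of 3 libraries overlap is a description and not a test. For KLK3 the order from low to high was both shRNAs, shHIF1A, KC7F2, shFOXA1, shFOXA1 with KC7F2 and control. All neighbours lay apart except the pair shFOXA1 and shFOXA1 with KC7F2. Of these KLK3 steps, shFOXA1 with KC7F2 against control and both shRNAs against shHIF1A were not called (limma adjusted p = 0.0546 and 0.108). For KLK2 a low set (both shRNAs, KC7F2 and shHIF1A, means of 25.6 to 29.04 RPKM) and a high set (shFOXA1 with KC7F2, shFOXA1 and control, 45.3 to 51.7 RPKM) were apart, and neighbours within each set overlapped. For KLK4 shHIF1A (33.5 RPKM) and both shRNAs (55.3 RPKM) lay apart from each other and from the rest, of which shFOXA1 with KC7F2 was highest at 120.4 ± 5.89 RPKM. For KLK15 every neighbouring pair overlapped.

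KLKP1, the pseudogene between KLK2 and KLK4 and the only other cluster gene that could be tested, rose in both comparisons that set the cells with both shRNAs against cells without the HIF1A shRNA, where the 4 kallikreins fell. It had 22.6, 15.1 and 16.5 RPKM in cells with both shRNAs, against 10.2, 10.0 and 6.70 RPKM in shFOXA1 cells. Its rise was 0.97 ± 0.19 (adjusted p = 0.000781), and it was also higher than in control (0.91 ± 0.19, adjusted p = 0.00109) and in shHIF1A cells (1.08 ± 0.19, adjusted p = 0.00103). In shFOXA1 cells with KC7F2 it averaged 15.9 ± 1.76 RPKM, against 8.97 ± 1.96 RPKM in shFOXA1 cells, a rise of 0.81 ± 0.19 (adjusted p = 0.0222) that was lost without shFOXA1 replicate 3 (adjusted p = 0.123) and without replicate 1 or 3 of shFOXA1 cells with KC7F2 (0.0985 and 0.0629). Against control, KLKP1 in shFOXA1 cells with KC7F2 rose by 0.75 ± 0.19 (adjusted p = 0.00747), a call kept in the other settings (adjusted p at most 0.0415). With shHIF1A alone its change was -0.17 ± 0.19 (adjusted p = 0.515), with KC7F2 alone 0.36 ± 0.19 (0.479) and with shFOXA1 alone -0.06 ± 0.19 (0.858). The interaction of the 2 shRNAs was 1.14 ± 0.27 (adjusted p = 0.0157). KLKP1 rested on 39 to 185 reads per library.

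Ratios within a library do not depend on its scaling, and they show that the members did not move in step. The tests here are exact permutation tests of a log2 ratio over libraries within each background, two-sided, with p adjusted over 12 tests, and they were added after the values were seen. KLK2 gained on KLK3 under the FOXA1 shRNA by 0.28 (mean of 3 backgrounds, exact p = 0.00025, the smallest possible, adjusted p = 0.003) and under the HIF1A shRNA by 0.22 (2 backgrounds, exact p = 0.005, the smallest possible, adjusted p = 0.015). Under KC7F2 KLK2 lost ground to KLK3, with a difference of -0.17 (exact p = 0.015, adjusted p = 0.0266). KLK4 gained on KLK3 under the FOXA1 shRNA by 0.50 on average (exact p = 0.0155, adjusted p = 0.0266), but unevenly, by 1.06 in HIF1A-depleted cells, 0.01 in KC7F2-treated cells and 0.42 in untreated cells. Under KC7F2 KLK4 gained by 0.40 (exact p = 0.025, adjusted p = 0.0375), by 0.19 in FOXA1-depleted cells and 0.61 in control-vector cells. Under the HIF1A shRNA the KLK4 ratio moved by -0.48 in control-vector cells and by 0.15 in FOXA1-depleted cells (exact p = 0.4 for the mean). The KC7F2 results of KLK4 and KLK2 rested on few libraries. The KLK4 gain under the FOXA1 shRNA depended in size on the 3 libraries rich in short genes. Without the 3 libraries rich in short genes, replicate 2 alone remained of KC7F2-treated control cells, so only sizes are given. The KLK4 gain was then 0.29 under the FOXA1 shRNA and 0.41 under KC7F2, and the KLK2 difference under KC7F2 was -0.11. With single libraries left out, the KLK4 gain under KC7F2 missed 0.05 without replicate 1 or 2 of KC7F2-treated control cells (exact p = 0.055 and 0.08), and the KLK2 loss without control 2 (exact p = 0.06). The KLK4 gain under the FOXA1 shRNA kept an exact p of at most 0.0278 with any single library left out. For KLK15 none of the 3 mean differences passed (exact p of 0.325 to 0.965), but under KC7F2 that mean of 0.01 joined a difference of -0.32 in FOXA1-depleted cells and 0.34 in control-vector cells, and under the FOXA1 shRNA the ratio moved by -0.54 in KC7F2-treated cells and by -0.02 and 0.12 in the other two backgrounds. KLKP1 gained on KLK3 under the HIF1A shRNA by 1.51 and under KC7F2 by 0.94 (exact p = 0.005 and adjusted p = 0.015 for each). Under the FOXA1 shRNA KLKP1 gained by 0.62 on average (exact p = 0.0095, adjusted p = 0.0228), by 1.46 in HIF1A-depleted cells, 0.10 in KC7F2-treated cells and 0.30 in untreated cells. That average was 0.50 without the 3 libraries rich in short genes.

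**Figure D4:**
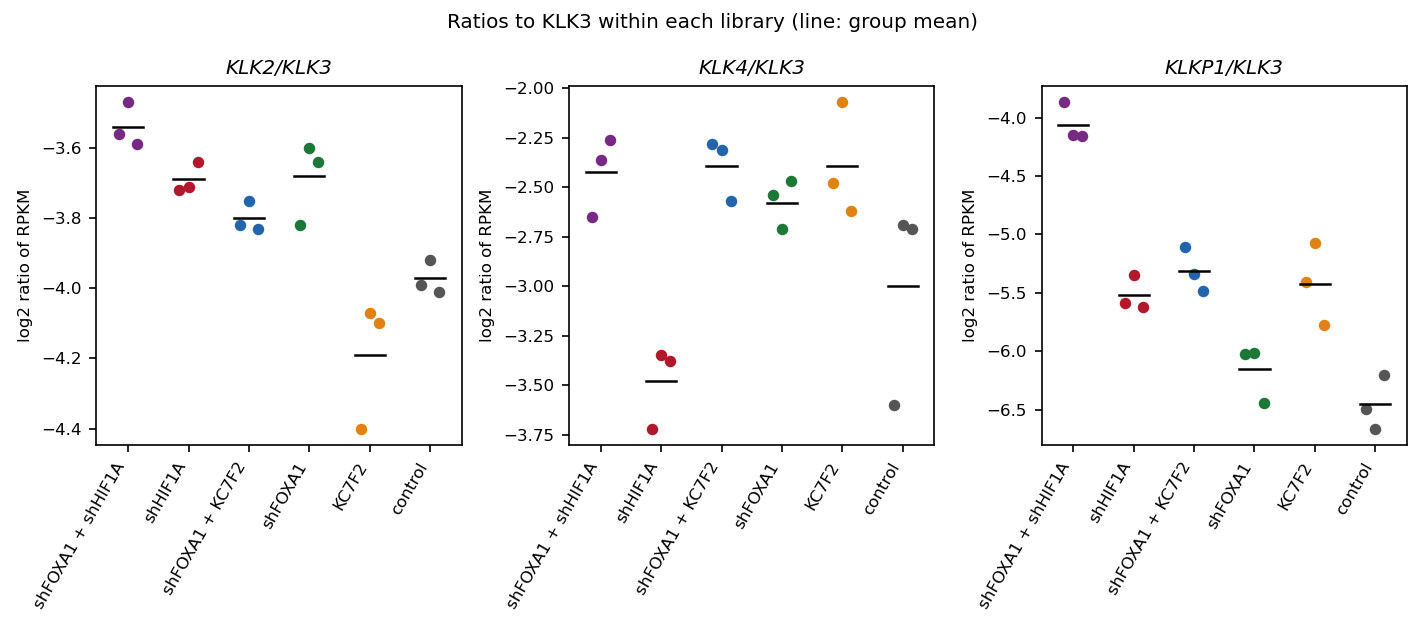
log2 ratio of RPKM to KLK3 in each library (points) with the mean of 3 libraries (line), for KLK2, KLK4 and KLKP1 by group. The KLK2 ratio is lowest in KC7F2-treated control cells at -4.19, the KLK4 ratio is lowest in shHIF1A cells at -3.48, where control replicate 1 at -3.60 lies among them, and the KLKP1 ratio is highest in cells with both shRNAs at -4.06.

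Transcription factors and coactivators of luminal prostate cells moved in both directions. Of 12 listed genes, which include FOXA1 itself, 11 were tested; 3 fell and none rose in shHIF1A cells (16.1% and 25.9% of all genes tested), 3 fell and 2 rose in shFOXA1 cells (14.6% and 9.52% of all genes), and none was called with KC7F2 (2.04% of all genes). SPDEF, an ETS factor of luminal cells, averaged 80.97 RPKM in shHIF1A cells and 21.3 RPKM in shFOXA1 cells, against 74.4 RPKM in control cells. It fell by 1.77 ± 0.13 in shFOXA1 cells (adjusted p = 5.58e-08) and changed by 0.12 ± 0.13 in shHIF1A cells (adjusted p = 0.518). ETV1, another ETS factor, averaged 16.3 RPKM in shHIF1A cells and 8.97 RPKM in shFOXA1 cells, against 22.0 RPKM in control cells (changes of -0.43 and -1.25, each ± 0.11, adjusted p = 0.00392 and 2.17e-07). GRHL2, a grainyhead factor of epithelia, rose by 0.90 ± 0.12 in shFOXA1 cells (adjusted p = 3.09e-05) and changed by -0.18 ± 0.12 in shHIF1A cells (adjusted p = 0.241).

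Of 5 inhibitors of kallikreins tested of 12 listed, 2 rose and none fell in shHIF1A cells (25.9% and 16.1% of all genes), 1 rose and none fell in shFOXA1 cells (9.52% and 14.6% of all genes), and none was called with KC7F2 (2.04% of all genes). SERPINA3, alpha-1-antichymotrypsin, the serpin that traps PSA in blood, averaged 35.9 RPKM in shFOXA1 cells and 9.61 RPKM in shHIF1A cells, against 1.91 RPKM in control cells (changes of 3.98 ± 0.20 and 2.12 ± 0.20, adjusted p = 6.3e-10 and 6.54e-07). Cells with both shRNAs averaged 9.82 RPKM of SERPINA3, below shFOXA1 cells by 1.83 ± 0.20 (adjusted p = 3.33e-06). SPINT1, a Kunitz inhibitor of membrane serine proteases, rose by 1.10 ± 0.10 in shHIF1A cells (173.9 against 80.96 RPKM in control, adjusted p = 2.58e-07) and changed by 0.10 ± 0.10 in shFOXA1 cells (adjusted p = 0.48). SPINT2 and SERPINB6 were not called in either.

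Of 14 listed substrates 6 passed the filter, and SEMG1, a semenogelin that PSA cleaves, passed it only through the groups with shFOXA1, so it is given by its values alone. SEMG1 had 2.89, 2.86 and 2.91 RPKM in shFOXA1 cells and was listed at 0 in all 3 control libraries, and its reads can be shared with its close copy SEMG2. Of the other 5, 3 rose and none fell in shFOXA1 cells (9.52% and 14.6% of all genes). Of the 6, 2 rose and 2 fell in shHIF1A cells (25.9% and 16.1% of all genes), and none was called with KC7F2 (2.04% of all genes). IGFBP3, an IGF carrier that PSA cuts, averaged 209 RPKM in shFOXA1 cells and 77.8 RPKM in shHIF1A cells, against 110.5 RPKM in control cells (changes of 0.92 ± 0.08 and -0.50 ± 0.08, adjusted p = 2.65e-07 and 9.7e-05). Fibronectin, FN1, rose by 0.99 ± 0.22 in shFOXA1 cells (606 against 314 RPKM in control, adjusted p = 0.00301). F2RL1, the protease-activated receptor that KLK2 and KLK4 can cleave, rose by 0.57 ± 0.13 in shFOXA1 cells (adjusted p = 0.00451) and fell by 0.59 ± 0.13 in shHIF1A cells (adjusted p = 0.00198).

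Other serine proteases of the epithelium were called in both directions. Of 7 tested of 11, 4 rose and 2 fell in shHIF1A cells (25.9% and 16.1% of all genes), 2 rose and 1 fell in shFOXA1 cells (9.52% and 14.6%), and 1 rose and 1 fell with KC7F2 (1.05% and 0.992%). TMPRSS2, a membrane protease that androgen induces, averaged 54.0 RPKM in shHIF1A cells, 146 RPKM in shFOXA1 cells and 193 RPKM in KC7F2-treated control cells, against 257 RPKM in control cells (changes of -2.24, -0.81 and -0.41, each ± 0.09, adjusted p = 7.91e-11, 3.75e-06 and 0.0201). ST14, matriptase, rose in shHIF1A cells by 0.68 ± 0.12 (adjusted p = 0.000284) and in shFOXA1 cells by 0.69 ± 0.12 (adjusted p = 0.00046).

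A list of other prostate genes held membrane and intracellular proteins as well as secreted ones, and most of those called were lower than in control. Of 11 tested, 7 fell and 1 rose in shHIF1A cells (16.1% and 25.9% of all genes), 6 fell and 2 rose in shFOXA1 cells (14.6% and 9.52%), and 3 fell and 1 rose with KC7F2 (0.992% and 1.05%). TMPRSS2 is counted here as well as among the serine proteases, and MSMB here as well as among the substrates. ACPP, prostatic acid phosphatase, averaged 4.77 RPKM in shHIF1A cells and 4.83 RPKM in shFOXA1 cells, against 28.7 RPKM in control cells (changes of -2.47 and -2.46, each ± 0.10, adjusted p = 1.28e-10 and 7.84e-11), so that it fell under FOXA1 knockdown, where no kallikrein was called. SLC45A3, prostein, fell by 2.95 ± 0.13 in shFOXA1 cells (adjusted p = 1e-10) and by 0.57 ± 0.13 in shHIF1A cells (adjusted p = 0.00188). The neighbours of the cluster on chromosome 19 were also compared. C19orf48, close to KLK15's end, averaged 76.0 RPKM in shHIF1A cells and 113 RPKM in shFOXA1 cells, against 160.4 RPKM in control cells (changes of -1.07 and -0.49, each ± 0.12, adjusted p = 4.89e-06 and 0.00825), and CLEC11A fell by 0.94 ± 0.21 in shHIF1A cells (adjusted p = 0.00154). Of the 4 neighbours tested of 8, 2 fell in shHIF1A cells (16.1% of all genes), 1 fell in shFOXA1 cells (14.6% of all genes) and none rose in either.

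The genes whose profiles were most like those of the members are given as a description over the 18 libraries, which share groups and depth. Nearest to KLK3 by Pearson's r were STK39 (0.93), NAMPT (0.93) and MALT1 (0.92), with KLK2 at rank 15 of 11357 genes (0.89) and KLK15 at rank 49 (0.87). Nearest to KLK2 were MAF (0.91), ASRGL1 (0.90) and KLK3 (0.89). Nearest to KLK4 were MARVELD2, ANKRD28 and DCTN4 (each 0.97), with KLK3 at rank 653 (0.72), and nearest to KLK15 were GNPNAT1, NOL10 and HSD17B12 (each 0.90). KLKP1 lay at -0.26 to KLK3.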

How the data were processed

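RNA was sequenced from total RNA of LNCaP cells (NEBNext Ultra kit) in 6 groups of 3. Per the submitters' processing notes the authors used STAR and the hg38 build, and they deposited RPKM; for the counting program, annotation and strand, nothing is given in the sources used here. Of 26475 lines, 32 had no value and were left out. RPKM are not counts, so limma 3.58.1 in R 4.3.3 was fitted to log2(RPKM + 0.5) of the 12900 genes that reached 1 RPKM in 3 or more of 18 libraries, as 1 model of 6 group means with 12 residual degrees of freedom and an intensity trend, two-sided, with Benjamini-Hochberg adjustment within each of 11 contrasts and calls below 0.05. The log2(RPKM + 0.5) scale understates changes of low genes. Contrasts against control share its 3 libraries, and no adjustment was made over contrasts. The fit was tested on simulated data with independent normal noise and planted changes. The simulation held no differences in depth or short-gene signal between libraries, so it does not cover those.

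Depth was read from the spacing of low values, at which 87.6% of low values were whole reads within 0.02 reads, and the values of KLK3, KLK2, KLK4, KLK15 and KLKP1 were whole within 0.1 reads. Reads are not molecules, so the limit of 3 reads covers counting error only. Positions are from GENCODE 29 and promoters from RefSeq (GRCh38.p14), where all 6 members matched. The members and gene lists were chosen with earlier results of these data known. Some genes of the lists and of the luminal markers are not reported here, and counts and sums are over the rest. Named were all members, FOXA1 and HIF1A, up to 4 genes of each list by smallest adjusted p after FOXA1 knockdown, of which some are not described, and the 3 genes most like each tested member. The alternatives were pseudocounts 0.1 and 1, all genes unfiltered, a filter of 5 RPKM, median-ratio scaling, quantile normalization, robust eBayes, a replicate block, only the groups compared and each library left out; leaving out the 3 libraries rich in short genes, and the tests of ratios with their left-out libraries, were added after the data were seen. Python 3.11.15 with numpy 2.4.6 was used for the rest.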

Additional observations from a re-analysis of the deposited data

Results flagged for a closer look

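KLK4 was singled out because its response to the HIF1A shRNA differed between backgrounds: the interaction of the FOXA1 and HIF1A shRNAs was 0.654 on the log2 scale (adjusted p = 0.0486, limma), from a change of -0.92 in FOXA1-depleted cells and -1.58 in control-vector cells. KLKP1 met the same condition, with an interaction of 1.14 (adjusted p = 0.0157), from a change of 0.97 in FOXA1-depleted cells and -0.17 in control-vector cells. FOXA1 mRNA was higher in cells with both shRNAs than in shFOXA1 cells (64.5 against 34.1 RPKM), and its part in these results was not tested.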

How the results depend on the processing

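The falls of KLK3, KLK2, KLK4 and KLK15 under the HIF1A shRNA, against control and against shFOXA1, and with both shRNAs against control, kept their direction and their calls under every alternative in which they were tested (limma adjusted p at most 0.0189); KLK15 did not reach the filter of 5 RPKM and was not tested there. The other results moved as follows, and the causes were not tested. Deviations from the group means correlated at -0.214 to 0.252 between same-numbered libraries (median -0.0082) and at -0.463 to 0.363 between others (median 0.00355). Of 45 same-numbered pairs 9 exceeded 0.1, as did 9 of 90 others, and 9 of 18 libraries correlated best with their own number. These values do not settle whether the replicate number is a pairing. The main fit left it out. With it as a replicate block, KLK3 passed the threshold in shFOXA1 against control (-0.361, limma adjusted p = 0.0255). KLK3 also passed in shFOXA1 with KC7F2 against control (-0.358, 0.0239) and against KC7F2 (0.298, 0.0474). KLK4 missed the threshold in the interaction of the shRNAs (0.654, 0.0536). With median-ratio scaling, shFOXA1 against control turned to 0.00265 for KLK2 and 0.0117 for KLKP1. The KLK3 interaction of the shRNAs turned to -0.00651, and that of KLK4 missed the threshold (0.619, limma adjusted p = 0.072). In shFOXA1 with KC7F2 against KC7F2, KLK3 (0.46) and KLK4 (0.463) passed beside KLK2, with 1829 genes called higher and 1883 lower. KLK2 passed in the interaction with KC7F2 (0.839, 0.0304), with 4 genes called higher and 4 lower. With quantile normalization, KLK2 turned to 0.103 in shFOXA1 against control. KLK3 and KLK2 turned to 0.044 and 0.0255 in shFOXA1 with KC7F2 against control, where KLK4 passed (0.525, limma adjusted p = 0.0499). KLK3 passed in both shRNAs against shHIF1A (-0.233, 0.048), beside KLK4. In shFOXA1 with KC7F2 against KC7F2, KLK3 (0.698) and KLK4 (0.661) passed beside KLK2, with 1712 genes called higher and 1822 lower. The KLK3 interaction of the shRNAs was -0.0486, and that of KLK4 missed the threshold (0.605, 0.19). KLK3 (0.883) and KLK2 (0.826) passed in the interaction with KC7F2, which called 25 genes. In KC7F2 against control, KLK3 missed the threshold with no filter (-0.656, limma adjusted p = 0.0656). With only the groups compared, KLK3 (-0.656, 0.411) and KLK2 (-0.863, 0.119) missed it, and 21 genes were called. Both settings also lost KLK4 in the interaction of the shRNAs (limma adjusted p = 0.0738 and 0.0908). The filter of 5 RPKM called KLK3 in shFOXA1 with KC7F2 against control (-0.358, limma adjusted p = 0.0483). Without the 3 libraries rich in short genes, replicate 2 alone remained of KC7F2-treated control cells, and KLK3 was -0.672 in KC7F2 against control. In that setting KLK2, KLK4 and KLKP1 turned to 0.0443, -0.112 and 0.0399 in shFOXA1 against control, KLK15 to 0.0757 in shFOXA1 with KC7F2 against KC7F2, and the KLK3 interaction of the shRNAs to -0.0966.

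With each library left out in turn, 0 to 1 members were called in shFOXA1 against control (KLK3 -0.452 to -0.237, KLK2 -0.182 to 0.0443, KLK4 -0.112 to 0.184, KLKP1 -0.19 to 0.127), 1 to 2 in KC7F2 against control (KLK3 -0.747 to -0.531, KLK4 -0.222 to 0.0744), 0 to 1 in shFOXA1 with KC7F2 against control (KLK3 -0.449 to -0.233), 1 to 3 in shFOXA1 with KC7F2 against KC7F2 (KLK3 0.228 to 0.351) and 0 to 1 in the interaction of the shRNAs (KLK3 -0.0966 to 0.119, KLK2 -0.224 to 0.00178, KLK15 -0.228 to 0.116). KLK3 ran from -0.0619 to 0.0562 in shFOXA1 with KC7F2 against shFOXA1 and KLK15 from -0.133 to 0.139 in the interaction with KC7F2. Of all genes tested, these fits called 2274 to 3936 in shFOXA1 against control and 150 to 497 in KC7F2 against control. They called 2664 to 4120 in shFOXA1 with KC7F2 against control and 2811 to 4816 in shFOXA1 with KC7F2 against KC7F2. In the interaction of the shRNAs they called 705 to 1204. Whether the member counts followed these totals was not tested. Over all genes, fitting only the groups compared called 1696 in place of 3111 genes in shFOXA1 against control, 21 in place of 263 with KC7F2, 3511 in place of 5430 with both shRNAs and 2094 in place of 3539 in shFOXA1 with KC7F2. With the 3 libraries rich in short genes left out, replicate 2 alone remained of KC7F2-treated control cells, so no counts are given for contrasts with that group. The interaction with KC7F2 called 2 to 27 genes in place of 10 across the other settings. Median-ratio scaling moved the share of called genes that were higher to 51.0% from 61.7% under shHIF1A, to 34.1% from 51.3% under KC7F2, to 48.3% from 64.0% in both shRNAs against shFOXA1 and to 49.3% from 26.9% in shFOXA1 with KC7F2 against KC7F2, and quantile normalization moved it to 49.2% from 36.7% in shFOXA1 with KC7F2 against control and to 46.7% from 36.3% in both shRNAs against shHIF1A. Depth limits KLK15 most, at 4 to 52 reads per library.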
